A study of Rattus norvegicus with 8 samples.

Results

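The genes described are those of the cytosolic ribosomal proteins, the protein parts of the ribosome that works in the cytoplasm. They were chosen by their symbols in a table of 31699 rows from rat annulus fibrosus cells (AFCs): every row was taken whose symbol starts with Rpl or Rps and continues with P0, P1 or P2 (in lower case), or with a number and at most 1 letter a, x or y, with or without a closing l or l and a digit. The rule found 109 rows with 82 symbols, 70 rows of the large subunit (Rpl) and 39 of the small subunit (Rps). No expression value was used to choose them. Of 76 symbols that name a standard ribosomal protein of this form, 68 had a row, and Rpl7, Rpl13a, Rpl27a, Rpl36, Rpl37a, Rpl41, Rps7 and Rps26 had none under those symbols. 16 symbols stood on several rows, 43 rows in all, with Rpl38 and Rpl39 on 6 rows each, and 14 rows carried a paralogue symbol such as Rps10l1. 9 rows were listed at 0 in all samples and 13 rows, these 9 included, lay below the mean of 1 TPM that a test required, so 96 rows were tested.

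AFCs are the cells of the outer fibrous ring of the intervertebral disc. The study took them from Sprague Dawley rats, pooled the tissue of several rats for each isolation, and used cells of the third generation in culture, grown with 10% serum in 5% CO2. All samples were exposed to cyclic mechanical stretch (CMS), which the study uses to induce apoptosis. 4 samples had received the vector pLVX-shRNA-Puro (labelled Lv-Ctrl) and 4 the vector pLVX-shRNA-Puro-Piezo1, which carries a short hairpin RNA against the mechanically gated channel Piezo1 (labelled Lv-Piezo1). No unstretched sample was analysed here, so both groups share the stretch, the lentivirus and the vector backbone, and the comparison asks what differs between stretched cells with and without the hairpin. The study counted the experiments on the cells of an isolation as 1 independent repeat and describes the 4 samples of a group as biological repeats. The labels do not say that a replicate number marks an isolation, and p-values measure the spread between these samples.

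A ribosome is built from a small subunit, which reads the messenger RNA, and a large subunit, which joins amino acids. Each subunit holds 1 copy of nearly every one of its proteins, so their genes are among the most highly expressed of a growing cell and are usually expressed in proportion. Most of their transcripts start with a run of pyrimidines, the 5′ terminal oligopyrimidine (TOP) motif, through which the kinase mTOR and the protein LARP1 control their translation. Transcript levels therefore do not give the rate at which the proteins are made. Free ribosomal proteins, above all L5 and L11 with the 5S RNA, can bind Mdm2, the protein that keeps p53 low.

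Values are TPM, a transcript level per length that adds up to the same total in every sample, and changes are differences of log2(TPM + 1), Lv-Piezo1 minus Lv-Ctrl, which understate the change of rows with low TPM. The sequencing depth is unknown, since TPM keeps none. Between 16645 and 17657 rows were above 0 in a sample. Piezo1 itself averaged 30.1 ± 2.67 TPM under the Lv-Ctrl label and 39.4 ± 1.75 TPM under the Lv-Piezo1 label (SD, n = 4 each), higher in the latter (log2 fold change 0.38, limma adjusted p = 8.6e-04), which goes against the label, so directions below refer to the labels only. The study reports that a separate check verified the hairpin, and that check was not analysed here. Fibroblast and annulus markers were present, 9 of 10 with a mean of at least 1 TPM, while Tnmd (0.0100 TPM) was near 0. They summed to 10509 to 12892 TPM per Lv-Ctrl sample and 14001 to 15502 TPM per Lv-Piezo1 sample and went both ways, with Col1a1 at 3282 ± 137 and 5835 ± 103 TPM, Dcn at 1456 ± 69.3 and 519 ± 14.9 TPM and Fmod at 68.4 ± 4.45 and 34.0 ± 1.40 TPM. Markers of smooth muscle cells and pericytes summed to 304.4 to 315.9 TPM per Lv-Ctrl sample and to 4377 to 4557 TPM per Lv-Piezo1 sample, with 6 of 8 at a mean of at least 1 TPM. Other lists were low: chondrocyte-like markers summed to 33.1 to 39.8 and 53.02 to 56.6 TPM, nucleus pulposus markers to 5.78 to 6.68 and 22.1 to 26.7 TPM (Tbxt was listed at 0), macrophage markers to 21.0 to 22.7 and 36.2 to 41.3 TPM (Adgre1 was listed at 0), and endothelial markers to at most 0.620 TPM in any sample. The part of these cell type differences in the ribosomal protein results was not tested, and in RNA of whole cultures a smaller number of cells of a type cannot be told apart from less RNA per cell.

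Ribosomal protein transcripts were abundant and close together in level. Taking for each standard symbol its most abundant row, 66 of the 68 rows had a mean of at least 100 TPM over the 8 samples, 39 of the large and 27 of the small subunit, and 54 of all 109 rows reached 1000 TPM. The median over the 68 rows was 1335 TPM, with quartiles of 1117 and 1966 TPM. Large and small subunits had like levels, with medians of 1436 TPM over the 39 rows and 1336 TPM over the 27 rows. Among the 66 rows the highest mean was 18.9 times the lowest, that of Rps18, and 8.08 times the next lowest, that of Rps10 (502 TPM). Rps29 and Rps20, both proteins of the small subunit head, were highest. Rps29 held 3973, 4179, 4937 and 4376 TPM in Lv-Ctrl replicates 1 to 4 and 3789.7, 3951, 3616 and 3599 TPM in Lv-Piezo1 replicates 1 to 4. Rps20 held 4029 ± 319.7 and 4076 ± 223 TPM (SD, n = 4 each), so the order of these highest rows is not the same in both groups. Rpl37 (3546 and 3200.4 TPM), Rpl23a (3481 and 3199 TPM), a protein at the exit of the peptide tunnel, and Rps27 (3419 and 3060.0 TPM) came next by their means in the Lv-Ctrl and Lv-Piezo1 samples.

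The few low rows lay where another row described as the same protein was high. The Rps27a row, whose gene encodes S27a fused to ubiquitin, held 3.85 and 3.52 TPM, while a row described as S27a-like without a symbol held 3463 and 3200 TPM and Rps27a-ps1 held 2347 and 2061 TPM. The Rpl22 row held 9.23 and 9.25 TPM, and an L22-like row without a symbol 853 and 904 TPM. The row with the symbol Rps18 (222 and 207 TPM) is described in the table as a galactosyltransferase, while Rps18l1 (1360 and 1435 TPM) is described as ribosomal protein S18. These rows without a member symbol are named after their values were seen. Reads of near-identical copies can be shared out among such rows in more than 1 way, so the level of a single row of these genes is uncertain. L13A, the protein of the absent symbol Rpl13a, was described on a row named AC099450.1, with 2090 ± 194 TPM in the Lv-Ctrl samples and 2036 ± 58.5 TPM in the Lv-Piezo1 samples (SD, n = 4 each).

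The 109 rows together made up a large share of all transcripts. Their share of the TPM of a sample was 10.7%, 10.9%, 12.4% and 11.4% in Lv-Ctrl replicates 1 to 4 and 10.8%, 11.2%, 10.5% and 10.2% in Lv-Piezo1 replicates 1 to 4, with means of 11.3% ± 0.750 and 10.7% ± 0.407 (SD, n = 4 each). The groups overlapped. Large subunit rows held 6.55% ± 0.418 and 6.20% ± 0.233, and small subunit rows 4.80% ± 0.333 and 4.48% ± 0.174. Over the same samples, mitochondrially encoded genes held 7.44% ± 0.386 and 5.92% ± 0.224. Leaving these out of the total gave ribosomal protein shares of 12.3% and 11.3%.

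**Figure D1:**
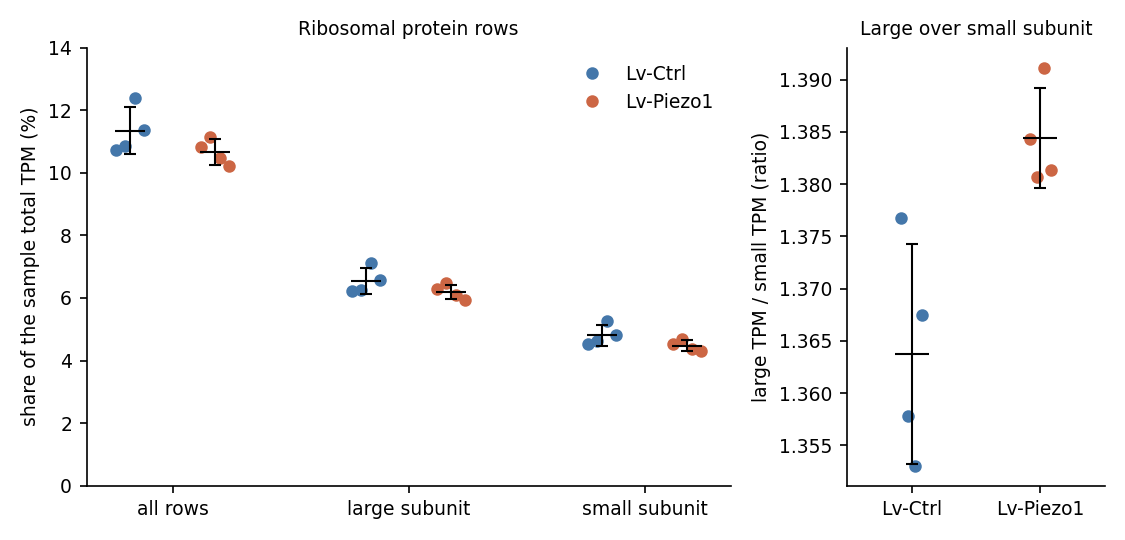
Share of the total TPM of each sample held by all ribosomal protein rows and by the rows of each subunit (left, percent, axis from 0), and the ratio of large to small subunit TPM (right, an axis that spans a narrow range and does not start at 0). Points are samples, bars the mean and SD of 4. The shares of the groups overlap, with Lv-Ctrl replicate 3 highest at 12.4%, while the ratios run from 1.353 to 1.377 in the Lv-Ctrl samples and from 1.381 to 1.391 in the Lv-Piezo1 samples.

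Lv-Ctrl replicate 3 stood apart in these genes. It was the highest of the 8 samples in 51 of the 66 abundant rows and lay 0.17 above the mean over samples in the median row on the log2 scale. The same sample had the fewest rows above 0 (16645). Lv-Piezo1 replicate 4 was the lowest in 29 of the 66 rows. Within a group the rows varied little. The median coefficient of variation was 6.83% in the Lv-Ctrl samples and 3.89% in the Lv-Piezo1 samples, against 8.73% and 6.83% over all 13103 rows tested.

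The ratio of large to small subunit TPM does not depend on the scaling of a sample. It was 1.377, 1.358, 1.353 and 1.367 in Lv-Ctrl replicates 1 to 4 and 1.384, 1.381, 1.391 and 1.381 in Lv-Piezo1 replicates 1 to 4. The groups did not overlap, and the means were 1.364 and 1.384. Without the 3 Rpl30 rows, an alternative chosen after seeing the data, the ratios were 1.344 to 1.367 and 1.357 to 1.369, and the groups overlapped.

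As deposited, most ribosomal protein rows changed little between the groups. The median log2 fold change of the 96 tested rows was -0.09 as deposited, beside 0.14 over all 13103 rows tested, a difference of -0.23, and 77 of the 96 rows lay below the median of all rows. The medians depended on the scaling. With median-ratio scaling they were -0.27 for the members and -0.02 for all rows, a difference of -0.25, close to that as deposited. Quantile normalization gives every sample the same distribution. With it the medians were -0.00586 and -0.00198, so the members then sat at the median of all rows. Among rows with a mean of at least 500 TPM, the median was -0.09 over 67 members and -0.06 over 236 other rows as deposited, and -0.27 and -0.24 with median-ratio scaling. By adjusted p alone, 13.4% of these members were higher and 32.8% lower as deposited, beside 33.1% higher and 44.1% lower among the other rows, and the difference between these shares was not tested. Without Lv-Ctrl replicate 3 the members' median was -0.03.

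The difference in change between the large and the small subunit was not tested row by row. Over the 66 abundant rows the median log2 fold change as deposited was -0.10 in both. The quartiles were -0.14 and 0.01 for the large and -0.16 and 0.03 for the small subunit. As deposited, 51 of the 66 rows lay within 0.2 of 0. With median-ratio scaling the median over the 67 members with a mean of at least 500 TPM was -0.27, outside this range. Over all tested rows the medians were -0.04 for the 59 large subunit rows and -0.10 for the 37 small subunit rows, -0.22 and -0.27 with median-ratio scaling, and -0.00746 and -0.00426 with quantile normalization.

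**Figure D2:**
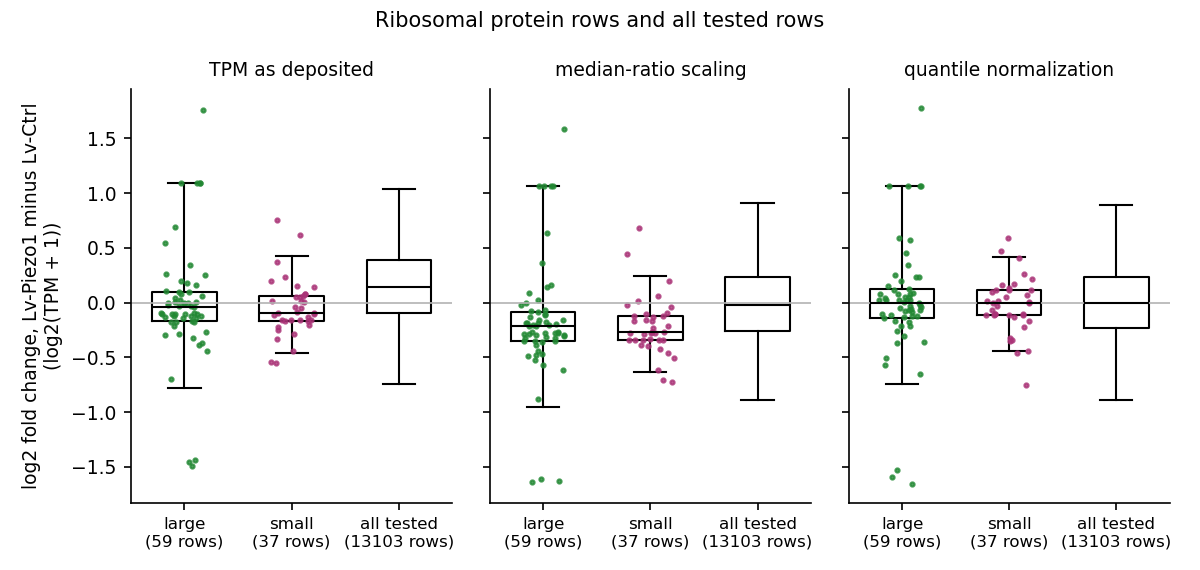
Log2 fold change (Lv-Piezo1 minus Lv-Ctrl, on log2(TPM + 1)) of the tested large subunit rows, small subunit rows and all tested rows under 3 scalings. Boxes give the median and quartiles, whiskers the 5th and 95th percentiles, and points single ribosomal protein rows. The members' boxes sit below that of all rows as deposited and with median-ratio scaling, and at the same height with quantile normalization. The cluster of points at 1.09 in the left panel is 4 Rpl39 rows with identical values.

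3 of the 96 tested rows (3.13%) passed both an adjusted p of 0.05 and a log2 change of 1 in either direction, while 7.67% of all tested rows did, 4.91% higher and 2.76% lower. They were 1 row of Rpl30, which was higher in the Lv-Piezo1 samples, and a second row of Rpl30 and a minor row of Rpl38, which were lower. By adjusted p alone, 10 rows (10.4%) were higher, 29 (30.2%) were lower and 57 did not pass, beside 41.9% higher and 16.3% lower, 58.2% together, over all tested rows. Median-ratio scaling gave 4 higher and 52 lower (26.7% higher and 29.2% lower over all tested rows), and quantile normalization 17 higher and 27 lower (28.8% and 27.2%). Without Lv-Ctrl replicate 3 the counts were 15 higher and 24 lower, and without Lv-Piezo1 replicate 3 the count of lower rows was 19. The shares over all tested rows in these fits are not given here. For the fits with a sample left out, a change in the members' counts therefore cannot be told apart from a change in the whole table. The values of the groups did not overlap in 7 rows that were higher and 25 that were lower, 33.3% of the tested rows. Over all tested rows 54.2% did not overlap, 39.8% higher and 14.5% lower.

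**Figure D3:**
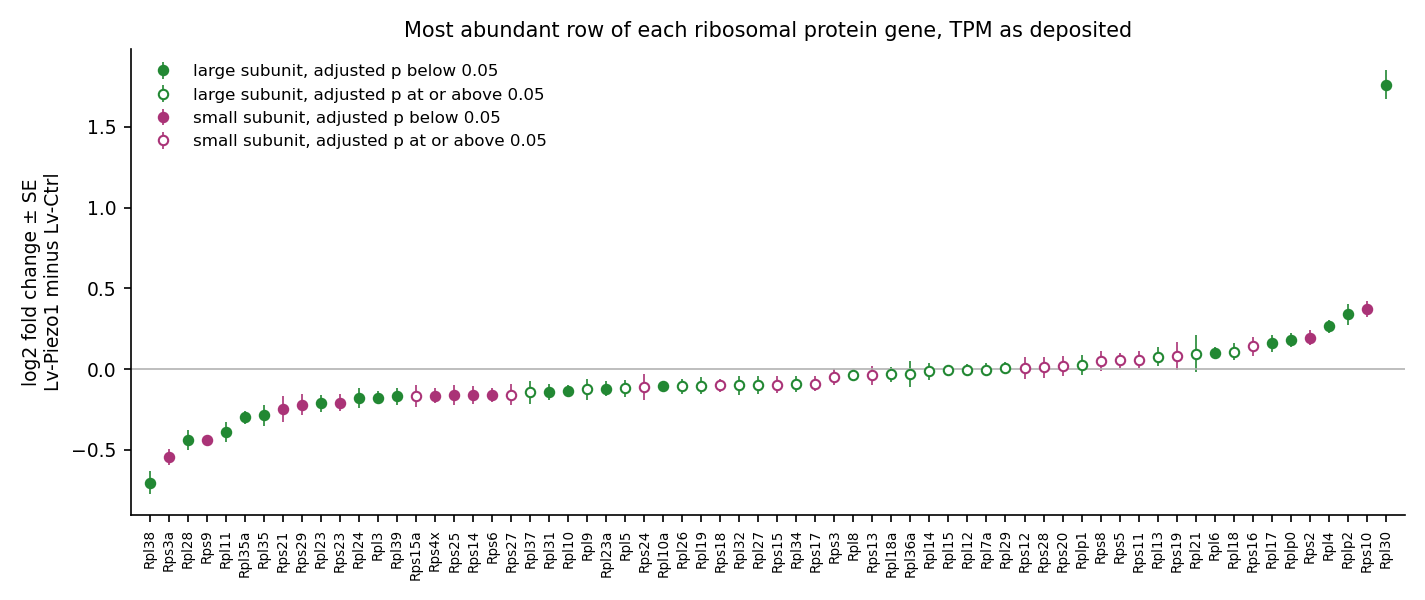
Log2 fold change with its standard error (Lv-Piezo1 minus Lv-Ctrl, limma on log2(TPM + 1), TPM as deposited) of the 66 most abundant rows, 1 per gene symbol, in order. Colour gives the subunit and filled points have an adjusted p below 0.05. The values run from Rpl38 at -0.70, followed by Rps3a at -0.54 and Rpl28 at -0.44, to Rps10 at 0.37, with 22 filled points below 0 and 8 above, and Rpl30 stands apart at 1.76. By adjusted p, 41.9% of all tested rows were higher and 16.3% lower. Among other rows with a mean of at least 500 TPM these shares were 33.1% and 44.1%. With median-ratio scaling 3 of the filled points above 0 (Rpl17, Rpl6 and Rplp0, the first 2 named after their values were seen) lie below 0.

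Rpl38, a large subunit protein known for its part in the translation of Hox messenger RNAs, fell most among the abundant rows. Its main row (ENSRNOG00000066047) held 2645, 2763, 3284 and 2902 TPM in Lv-Ctrl replicates 1 to 4 and 1815, 1894, 1658 and 1744 TPM in Lv-Piezo1 replicates 1 to 4. Every Lv-Piezo1 value lay below every Lv-Ctrl value, and the mean fell by 38.7% (log2 fold change -0.70 ± 0.0684 SE, limma adjusted p = 2.6e-05). Rps3a, which sits near the mRNA exit of the small subunit, held 2564, 2513, 2936 and 2755 TPM in the Lv-Ctrl samples and 1816, 1862, 1854 and 1845 TPM in the Lv-Piezo1 samples. The Lv-Piezo1 values were close together and all lower (log2 fold change -0.54 ± 0.0479 SE, limma adjusted p = 1.4e-05).

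Rpl28, a large subunit protein, held 1753, 1735, 1969 and 1729 TPM in the Lv-Ctrl samples and 1351, 1436, 1314 and 1201 TPM in the Lv-Piezo1 samples, and fell by 0.44 on the log2 scale (limma adjusted p = 2.5e-04). Rpl11, which forms the 5S particle with Rpl5 and can bind Mdm2, held 1703, 1762, 2094 and 1795 TPM against 1416, 1459, 1408 and 1323 TPM, and fell by 0.39 (limma adjusted p = 6.6e-04). None of these values overlapped between the groups. Rpl5, the partner of Rpl11 in that particle, was 1724 ± 102 and 1586 ± 79.4 TPM (SD, n = 4 each) with a log2 fold change of -0.12, which did not pass the test as deposited (limma adjusted p = 0.069) but did with median-ratio scaling (-0.30, adjusted p = 0.00902). Rps9, Rpl35a and Rpl35 also fell, by 0.44, 0.30 and 0.29 on the log2 scale, and are named after their values were seen.

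Smaller falls were found among the rows named for a stated role or a high level. They are not particular to such rows, and 51 of the 66 abundant rows lay within 0.2 of 0 as deposited. Rps6, the substrate of S6 kinase downstream of mTOR, was 1181 ± 72.0 and 1056 ± 17.2 TPM (SD, n = 4 each), log2 fold change -0.16 (limma adjusted p = 0.010). Rpl10, which joins the large subunit late in its assembly, was 1320.4 ± 54.9 and 1202 ± 11.3 TPM, log2 fold change -0.13 (limma adjusted p = 0.0072). The highest row, Rps29, fell by 0.22 (limma adjusted p = 0.017), Rpl23a fell by 0.12 (limma adjusted p = 0.044), and Rps27 (-0.16, limma adjusted p = 0.058), Rpl37 (-0.14, limma adjusted p = 0.10) and Rps20 (0.02, limma adjusted p = 0.82) did not pass. Rps29 lost its call without Lv-Piezo1 replicate 3 (limma adjusted p = 0.054), and Rpl23a lost its call under several alternatives.

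The rises were fewer and included 2 of the 3 stalk proteins. The stalk of the large subunit, made of Rplp0, Rplp1 and Rplp2, recruits the elongation factors. Rplp2 held 1394, 1415, 1656 and 1449.5 TPM in Lv-Ctrl replicates 1 to 4 and 1956, 1949, 1869 and 1706 TPM in Lv-Piezo1 replicates 1 to 4. All Lv-Piezo1 values were higher (log2 fold change 0.34 ± 0.0638 SE, limma adjusted p = 0.0016), although with median-ratio scaling the change of 0.16 did not pass (limma adjusted p = 0.16). Rplp0 held 1879.5, 1891, 2108 and 1914 TPM against 2236, 2259, 2210.2 and 2104 TPM, overlapping through Lv-Ctrl replicate 3, and its log2 fold change of 0.18 (limma adjusted p = 0.0061) became -0.0011 with median-ratio scaling. Rplp1 was 833 ± 44.4 and 849 ± 69.4 TPM (SD, n = 4 each), which did not pass (log2 fold change 0.02, limma adjusted p = 0.76), and -0.16 with median-ratio scaling. Rpl4, which lines the peptide tunnel, and Rps2, near the mRNA entry, had log2 fold changes of 0.26 and 0.19 as deposited and 0.08 and 0.01 with median-ratio scaling, and are named after their values were seen.

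In some of the genes that stood on more than 1 row the rows differed in their change. Rpl30, a large subunit protein that also binds selenocysteine messenger RNAs, was the plainest case. Its row ENSRNOG00000032825 held 299.8, 261, 339 and 273 TPM in Lv-Ctrl replicates 1 to 4 and 1058, 1073, 929 and 913 TPM in Lv-Piezo1 replicates 1 to 4, with a log2 fold change of 1.76 ± 0.0878 SE (limma adjusted p = 3.7e-07). Its row ENSRNOG00000068679 held 139.5, 129, 142 and 138 TPM against 51.0, 51.2, 49.3 and 46.1 TPM, log2 fold change -1.45 ± 0.0454 SE (limma adjusted p = 1.9e-08). So 1 row rose 3.39-fold and the other fell by 63.9%, with no overlap in either.

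The sum of the Rpl30 rows was 430.0 ± 39.6 TPM in the Lv-Ctrl samples and 1043 ± 86.0 TPM in the Lv-Piezo1 samples (SD, n = 4 each), log2 fold change 1.28 (limma adjusted p = 8.0e-07 with rows of the same symbol summed). In the Lv-Ctrl samples this lay below the lower quartile of the standard ribosomal protein rows, and in the Lv-Piezo1 samples close to it. The table also holds 1139 loci that were assembled by the authors and carry no symbol, and the one with the largest fall in TPM held 880, 808, 1017 and 856 TPM in Lv-Ctrl replicates 1 to 4 and 130.4, 149, 127 and 110.2 TPM in Lv-Piezo1 replicates 1 to 4 (log2 fold change -2.78, limma adjusted p = 3.2e-08). It was singled out after its values were seen. The sum of the 3 Rpl30 rows and this locus was 1320.0 ± 129 and 1172 ± 99.6 TPM, a log2 difference of -0.17. The table gives no position or sequence for assembled loci, so whether this locus shares reads with Rpl30 was not tested.

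Rpl38 had 6 rows, 4 of them listed at 0. Its minor row ENSRNOG00000048701 held 40.9, 35.4, 42.4 and 20.4 TPM in the Lv-Ctrl samples and 12.6, 10.2, 10.4 and 14.1 TPM in the Lv-Piezo1 samples (log2 fold change -1.44 ± 0.214 SE, limma adjusted p = 3.7e-04). Both rows of Rpl38 were thus lower, and their sum fell from 2933 ± 279 to 1789 ± 100.5 TPM, a log2 fold change of -0.71 (limma adjusted p = 1.9e-05).

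Rpl12, at the base of the stalk, had 2 rows of which 1 moved. The row ENSRNOG00000016220 was 1199 ± 53.2 and 1195.0 ± 30.4 TPM (SD, n = 4 each), log2 fold change -0.0038. The row ENSRNOG00000028993 held 391, 392, 468 and 433 TPM in the Lv-Ctrl samples and 629.6, 676, 602 and 546 TPM in the Lv-Piezo1 samples, log2 fold change 0.54 ± 0.0769 SE (limma adjusted p = 2.8e-04). The sum was 1619.7 ± 89.1 and 1808 ± 78.4 TPM as deposited (log2 fold change 0.16, limma adjusted p = 0.016, exact permutation p = 0.057). With median-ratio scaling the log2 fold changes of the 2 Rpl12 rows were -0.18 and 0.36, and their sum was not tested with it. Rps4x, the X-linked gene of S4, also split. Its main row, described in the table as a pseudogene, fell from 1408 ± 90.9 to 1255 ± 43.2 TPM (log2 fold change -0.16, limma adjusted p = 0.016), and its minor row rose from 17.4 ± 3.32 to 27.1 ± 4.93 TPM (0.62, limma adjusted p = 0.0065). The call on the main Rps4x row was lost without Lv-Piezo1 replicate 3 (limma adjusted p = 0.051) and with quantile normalization (limma adjusted p = 0.072). It was also lost with a replicate block (limma adjusted p = 0.051).

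Among the 16 repeated symbols, Rpl30 and Rps4x were those with 1 row higher and another lower by adjusted p. 4 of the 6 Rpl39 rows held identical values, 0 in 7 samples and 19.8 TPM in Lv-Piezo1 replicate 4, so their fitted log2 fold change of 1.09 rests on 1 sample (limma adjusted p = 0.33), and the sum of the Rpl39 rows fell by 0.16 (limma adjusted p = 0.025). A minor Rpl35a row, named after its values were seen, had the lowest fitted change of all, -1.49, with 22.7, 16.1, 6.51 and 19.1 TPM in the Lv-Ctrl samples and 0, 9.97, 7.28 and 9.84 TPM in the Lv-Piezo1 samples, and did not pass (limma adjusted p = 0.12). With rows of the same symbol summed, a setting chosen after seeing the data, Rpl30 was the 1 ribosomal protein gene past the threshold.

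Of the 14 paralogue rows, 8 could be set against their parent gene, with both at a mean of at least 1 TPM. For each ratio all 70 ways of labelling the samples were enumerated in an exact permutation test (two-sided), whose smallest possible p is 0.029, and p-values are not adjusted over the 8 pairs. The ratios of 3 pairs did not overlap between the groups, while 54.2% of all tested rows, taken singly, did not overlap. Rps10, a protein of the small subunit head, held 434, 428, 474 and 412 TPM in Lv-Ctrl replicates 1 to 4 and 574, 596, 559.96 and 535 TPM in Lv-Piezo1 replicates 1 to 4, while Rps10l1 held 277, 309, 309 and 277 TPM and 221, 241, 245 and 224 TPM. Rps10 was thus higher and Rps10l1 lower in every Lv-Piezo1 sample (log2 fold changes 0.37 and -0.33, limma adjusted p = 1.8e-04 and 6.2e-04). The log2 ratio of Rps10l1 to Rps10 went from -0.58 ± 0.0772 to -1.28 ± 0.0791 (SD, n = 4 each, exact permutation p = 0.029), and Rps10l1 held 40.1% of the pair in the Lv-Ctrl samples and 29.1% in the Lv-Piezo1 samples. The sum of the pair was 729.8 ± 40.4 and 799 ± 32.3 TPM (exact permutation p = 0.057).

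The 2 other pairs differed by less. The log2 ratio of Rpl22l1, a paralogue with its own roles in blood cell development, to Rpl22 went from 2.52 ± 0.132 to 2.25 ± 0.0763 (exact permutation p = 0.029, and 0.057 without any 1 of the Lv-Piezo1 samples), with Rpl22l1 at 57.7 ± 5.40 and 47.7 ± 3.03 TPM and Rpl22 at the low level given above. The far higher L22-like row without a symbol is not part of this ratio. The log2 ratio of Rps18l1 to the row named Rps18 went from 2.61 ± 0.0168 to 2.79 ± 0.0345 (exact permutation p = 0.029), a pair in which the descriptions place S18 on Rps18l1. The ratios of Rps27l (0.06, exact permutation p = 0.14), Rpl31l4 (0.04, exact permutation p = 0.97), Rpl39l (-0.21, exact permutation p = 0.20), Rps15al4 (-0.39, exact permutation p = 0.29) and Rpl35al1 (0.56, exact permutation p = 0.057) to their parents changed by values that did not pass. Rps27l, a p53 target in other cells, was 228 ± 17.0 and 213 ± 10.4 TPM (SD, n = 4 each). Rpl3l (0.542 and 0.825 TPM) and Rpl10l (0.378 and 0.897 TPM), paralogues known from muscle or testis, were near 0, and Rplp0l1 was listed at 0. Rpl39l was low but lower in the Lv-Piezo1 samples, at 8.29 ± 0.722 and 6.23 ± 1.13 TPM (log2 fold change -0.37, limma adjusted p = 0.021). This call was lost without Lv-Ctrl replicate 1, Lv-Ctrl replicate 2 or Lv-Piezo1 replicate 4. Rpl7l1 was 66.8 ± 3.55 and 65.5 ± 0.842 TPM and had no parent row.

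A further 255 rows without a matching symbol are described as ribosomal proteins of the cytosol, with 1.18% to 1.38% of the TPM in each sample. 123 of them were listed at 0 in all samples and 47 were tested. None passed the fold threshold by limma, while 7.67% of all tested rows did, and 2 were higher and 2 were lower by adjusted p alone, beside 41.9% and 16.3% of all tested rows. An L13-like row held 319, 308, 688.5 and 552 TPM in Lv-Ctrl replicates 1 to 4 and 916, 909, 772 and 701 TPM in Lv-Piezo1 replicates 1 to 4 (log2 fold change 0.90, limma adjusted p = 0.013), and it is named after its values were seen. The values within a group were far apart, while the sum of the rows described as L13 was 1672 ± 99.5 and 2093 ± 103 TPM (SD, n = 4 each).

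The starts of these genes share a pyrimidine run. Rat promoters from RefSeq (assembly GRCr8) held an entry for 54 of the standard symbols, with 55 starts, and none for Rpl30. In a window of 30 bases, 15 before and 15 from the annotated start on, the longest run of C and T had a median length of 10 bases over the 55 starts and 4 over all 33469 starts in the table. A C at the start followed by at least 4 pyrimidines stood at 21 of 55 starts (38.2%) and at 2.63% of all starts. The letters CTTTCC, searched on the strand of the gene, stood in the last 100 bases of 22 entries (40.0%), beside 4.40% of all, and CTTCCG on either strand in the whole 300 bases of 29 entries (52.7%), beside 16.6% of all. Matches of the 2 motifs can share at most 1 base and were counted apart. A match is a description of these letters and of the annotated start, which may differ from the start used in these cells.

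Windows of the genes with the largest falls and rises are shown 5′ to 3′ on the strand of the gene. The longest pyrimidine run, or the first of them where several are equally long, is in capitals. Members that moved in opposite directions can so be compared around the annotated start. A TOP motif would lie from the annotated start on, after the first 15 bases of a window. They are the 5 main rows with the largest falls, followed by the 3 with the largest rises that have an entry, Rps9 and Rpl4 being named after their values were seen.
Rpl38 (chr10:100200420-100200449, GRCr8, plus strand): cttcgTTCTTTTTCCgttgttcggtgctcg
Rps3a (chr2:173827028-173827057, GRCr8, minus strand): gagttgtacttccgCCCTTTTggctctcag
Rpl28 (chr1:78083518-78083547, GRCr8, minus strand): ccccgcccctagtgTCTTTCTTTCCgtctc
Rps9 (chr1:74430423-74430452, GRCr8, minus strand): tccggcggccacgTTTCTCTTTgtcacggg
Rpl11 (chr5:153560788-153560817, GRCr8, minus strand): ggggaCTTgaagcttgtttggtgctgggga
Rps10 (chr20:5700730-5700759, GRCr8, minus strand): gccgcgcacgCCCCTTCCTTTCCagcctcc
Rplp2 (chr1:205975906-205975935, GRCr8, plus strand): CCTTTCgccgccggacgccgccgaggtcgc
Rpl4 (chr8:73566462-73566491, GRCr8, plus strand): taagTTCTTCCTTTTCCTgtgggagcagcc
The runs are 3 to 11 bases long in the genes that fell, shortest in Rpl11, and 6 to 14 bases long in those that rose. The marked runs of Rpl38, Rpl11 and Rplp2 lie wholly before the annotated start, so these lengths are not lengths of TOP motifs. Rpl11 holds other runs of 3 bases, and the last of them lies after the annotated start. Among the genes shown, only Rps3a and Rpl28 have a C at the annotated start followed by at least 4 pyrimidines. Over all 55 starts the C followed by at least 4 pyrimidines stood at 9 of 19 starts of genes whose main row was lower (47.4%), at 2 of 7 that were higher (28.6%) and at 10 of 29 that did not pass (34.5%), a difference that was not tested. The median run was 10, 12 and 9 bases in these groups.

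The genes that make, regulate or work with the ribosome were described by lists written from general knowledge. Ribosome biogenesis factors, which process ribosomal RNA and assemble subunits in the nucleolus, had 61 tested rows of which 40 (65.6%) were higher, 3 (4.92%) lower and 18 did not pass, beside the 41.9% higher and 16.3% lower over all tested rows. With median-ratio scaling 21 were higher and 11 lower, beside 26.7% and 29.2% over all rows. The list had a median log2 fold change of 0.25 as deposited, 0.08 with median-ratio scaling and 0.12 with quantile normalization. Examples are Noc4l, from 11.3 ± 0.879 to 17.4 ± 1.21 TPM, Mybbp1a, from 19.9 ± 1.09 to 29.6 ± 0.361 TPM, and Nob1, the nuclease that matures 18S RNA, which fell from 89.9 ± 2.21 to 72.5 ± 1.02 TPM (SD, n = 4 each). RNA polymerase I, which transcribes ribosomal RNA, had 9 (47.4%) higher, 1 (5.26%) lower and 9 that did not pass of 19 tested, the share of higher rows being close to the 41.9% over all rows, and 6 higher and 5 lower with median-ratio scaling (median 0.12 as deposited, -0.04 with median-ratio scaling and -0.05 with quantile normalization), with Polr1g from 8.99 ± 1.00 to 17.8 ± 0.505 TPM. Mitochondrial ribosomal proteins, 71 tested, had 18 (25.4%) higher, 14 (19.7%) lower and 39 that did not pass, and 10 higher and 24 lower with median-ratio scaling (median 0.02, -0.15 and -0.10 by the same order of scalings), with Mrpl12 from 27.1 to 46.4 TPM and Mrps6 from 111 ± 12.8 to 77.3 ± 7.22 TPM.

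Elongation factors, whose transcripts also carry a TOP motif, had 4 (66.7%) higher, 1 (16.7%) lower and 1 that did not pass of 6 tested. Over all tested rows 41.9% were higher and 16.3% lower. With median-ratio scaling 2 elongation factors were higher and 2 lower, and 26.7% and 29.2% over all rows, for this list and those that follow. The median was 0.21 as deposited, 0.04 with median-ratio scaling and 0.36 with quantile normalization. Eef2, which moves the ribosome along, went from 1149.9 ± 41.0 to 1544 ± 15.1 TPM and Eef1g from 625 ± 23.3 to 807 ± 12.6 TPM. Initiation factors had 10 (33.3%) higher, 6 (20.0%) lower and 14 that did not pass of 30 tested, and 3 higher and 15 lower with median-ratio scaling (median 0.03, -0.15 and -0.03), with Eif3f from 266 ± 6.94 to 333 ± 13.6 TPM and Eif4g2 from 317 ± 32.5 to 219 ± 14.5 TPM. The list of other TOP transcripts, which overlaps both, had 8 (47.1%) higher, 4 (23.5%) lower and 5 that did not pass of 17 tested, shares near the 41.9% and 16.3% over all tested rows, and 3 higher and 6 lower with median-ratio scaling (median 0.11, -0.07 and 0.19). Ribosomal proteins outside the symbol rule, Rpsa, Fau and Rack1, were 941 and 989.6, 1569 and 1429, and 1328 and 1422 TPM, and of these Rack1 alone passed (log2 fold change 0.10, limma adjusted p = 0.048).

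Of 19 tested regulators of ribosomal protein synthesis, 10 (52.6%) were higher, 1 (5.26%) was lower and 8 did not pass, beside 41.9% and 16.3% over all tested rows. With median-ratio scaling 6 were higher and 5 lower, beside 26.7% and 29.2% over all rows. The median was 0.19 as deposited, 0.03 with median-ratio scaling and 0.07 with quantile normalization. Myc, which drives transcription of ribosome genes, rose from 12.5 ± 1.33 to 21.4 ± 0.637 TPM (log2 fold change 0.74), and Mxd4, a member of the Mxd family that opposes Myc, fell from 43.3 ± 2.60 to 27.3 ± 1.61 TPM (-0.64). In the mTOR pathway, as deposited, Rptor (8.05 and 11.4 TPM), Tsc1 (5.02 and 7.56 TPM), Tsc2 (15.4 and 19.3 TPM), Rps6kb2 (17.5 and 23.6 TPM) and Eif4ebp2 (9.95 and 13.8 TPM) were higher. Mtor itself (5.65 and 6.47 TPM, limma adjusted p = 0.17) and Eif4ebp1 (515 and 524 TPM, limma adjusted p = 0.51) did not pass. Mlst8, Rheb and Rps6kb1 are also on the list, and their values are not given here. Single genes of this list are not given with median-ratio scaling. Larp1, which holds TOP transcripts back, was 31.5 ± 3.89 and 38.2 ± 2.30 TPM (limma adjusted p = 0.023). p53 targets and genes of ribosomal stress had 9 (64.3%) higher, 2 (14.3%) lower and 3 that did not pass of 14 tested, beside 41.9% and 16.3% over all tested rows, and 7 higher and 4 lower with median-ratio scaling (median 0.35, 0.18 and 0.21), with Cdkn1a, an inhibitor of the cell cycle, from 117 ± 12.4 to 217 ± 8.90 TPM, the proapoptotic Bbc3 from 4.81 ± 0.579 to 10.4 ± 0.386 TPM, and Sesn1 from 7.33 ± 0.474 to 5.08 ± 0.352 TPM. No gene of the 9 lists passed the fold threshold of 1 by limma, while the counts above passed by adjusted p alone.

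**Figure D4:**
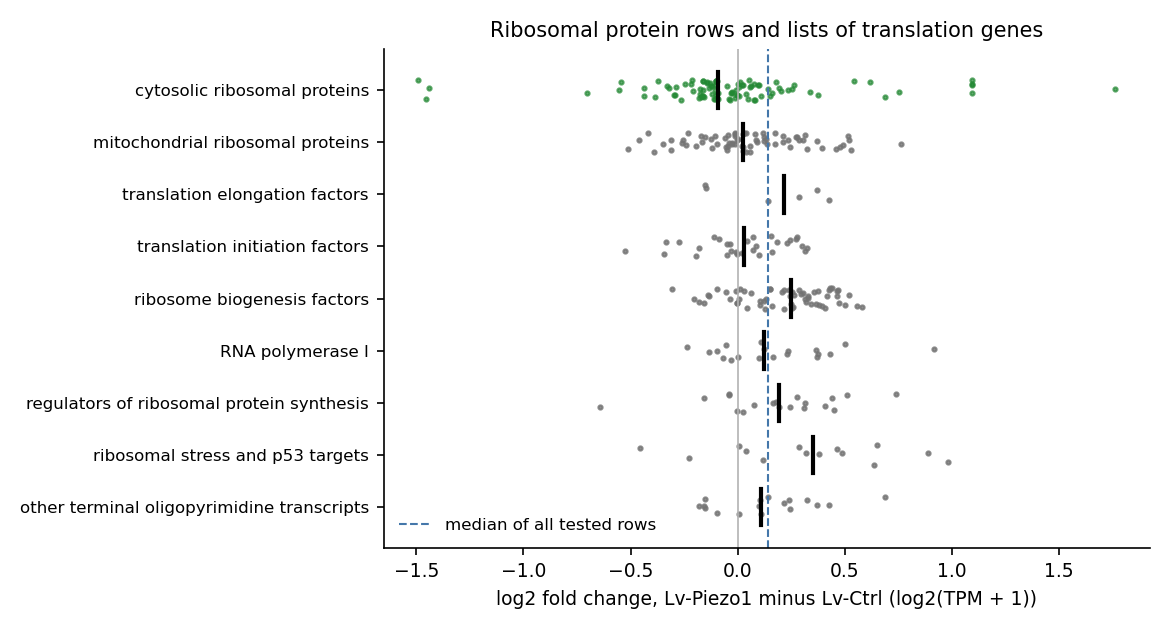
Log2 fold change (Lv-Piezo1 minus Lv-Ctrl, on log2(TPM + 1), TPM as deposited) of the tested ribosomal protein rows and of the lists of related genes. Points are rows, black bars list medians and the dashed line the median of all tested rows (0.14). As deposited the ribosomal proteins have the lowest median (-0.09) and p53 targets the highest (0.35), and with median-ratio scaling these are -0.27 and 0.18, also the lowest and highest. With quantile normalization the order changes: mitochondrial ribosomal proteins (-0.10), RNA polymerase I (-0.05) and initiation factors (-0.03) lie below the members (-0.00586), and elongation factors (0.36) above p53 targets (0.21).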

How the data were processed

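RNA of 4 Lv-Ctrl and 4 Lv-Piezo1 samples of rat annulus fibrosus cells was sequenced by the study. The authors deposited 1 table of TPM per gene, together with loci assembled by them. The study's methods name HISAT2, StringTie and FPKM on the rat genome, and how TPM were made is not given in the sources used here. The submitters' processing notes name mm10 and DESeq2, whereas the identifiers are rat Ensembl ones. TPM holds no depth, and reads of near-identical copies may be split between rows.

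Values were tested as log2(TPM + 1) with limma 3.58.1 in R 4.3.3 (empirical Bayes with a trend, Benjamini-Hochberg adjustment over 13103 rows with a mean of at least 1 TPM). A row was called past both an adjusted p of 0.05 and a log2 change of 1 in either direction. Single ratios were compared by exact two-sided permutation over 70 relabelings. Python 3.11.15, numpy 2.4.6, pandas 2.3.3 and matplotlib 3.10.9 were used, and the fit was tested on simulated data. Members and gene lists were chosen with earlier results of these data known. Named rows were those past the fold threshold and the 5 highest and 5 lowest standard rows. The 5 largest rises and falls among rows of at least 10 TPM whose groups did not overlap were also named. So were all paralogues, Piezo1 and genes of stated roles (Rplp0, Rplp1, Rplp2, Rpl5, Rpl11, Rps6, Rpl10, Rpl13a, Rps27a and Rps4x). In each list up to 2 rises and 2 falls were named. The rule also covered all regulators of ribosomal protein synthesis, but only part of them is reported here. Other names were picked with their values in view and are marked. Alternatives were median-ratio scaling, quantile normalization, a pseudocount of 0.1, a minimum of 5 TPM or none, no trend, a replicate block, totals without ribosomal protein or mitochondrially encoded genes, and leaving out each sample. Summing rows of 1 symbol and leaving out Rpl30 were added after seeing the data.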

Additional observations from a re-analysis of the deposited data

Results flagged for a closer look

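In 7 of 108 groups of 4 samples checked over the named rows and ratios, 1 sample lay far from the others by the ratio of its gap to the range of the group (Dixon), while chance gives about 5% of groups. 3 of them were Lv-Ctrl replicate 3 in rows well above 0 or a ratio of such rows: Rpl28 at 1969 TPM (others 1729 to 1753), Rplp0 at 2108 TPM (others 1879.5 to 1914) and the log2 ratio of Rps18l1 to Rps18 at 2.59 (others at 2.62). Lv-Piezo1 replicate 2 was high in Rpl10 at 1219 TPM (others 1195 to 1198) and in Rps6 at 1081 TPM (others 1045 to 1051). Rpl30l1 was listed above 0 in Lv-Ctrl replicate 3 alone of its group, at 0.70 TPM, and Rps12l2 in Lv-Piezo1 replicate 1 alone of its group, at 1.1 TPM. The cause was not tested.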

How the results depend on the processing

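The scaling of the samples moved the results most. With median-ratio scaling 4 ribosomal protein rows were higher and 52 lower, with median log2 fold changes of -0.27 (members), -0.0188 (all tested rows), -0.22 (large subunit) and -0.27 (small subunit). With quantile normalization 17 rows were higher, with medians of -0.00586 (members), -0.00198 (all tested rows) and -0.00426 (small subunit). Without the filter on low TPM the median of all rows was 0.0701. Summing rows of the same symbol left 1 called, Rpl30. Leaving out 1 sample at a time gave 3 called rows each time, 8 to 15 higher and 19 to 31 lower, with 15 higher without Lv-Ctrl replicate 3 and 19 lower without Lv-Piezo1 replicate 3. The shares over all tested rows in these fits are not given here. The medians ran from -0.11 to -0.03 (members), 0.12 to 0.15 (all), -0.08 to -0.01 (large) and -0.12 to -0.05 (small). The difference in the share of TPM was -0.675 percentage points with all samples and -0.875 to -0.325 with 1 left out, smallest without Lv-Ctrl replicate 3.

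Of 35 named members tested, some of them named for the size of their change, 20 passed by adjusted p, beside 58.2% of all tested rows. 1 of the 20 changed sign under an alternative, Rplp0 (-0.00107 with median-ratio scaling). 5 of the 20 lost their call under at least 1 alternative (Rpl23a, Rpl39l, Rplp2, Rps29 and the main Rps4x row). The other changes of sign were in rows and a ratio that had not passed. With median-ratio scaling they were Rpl22 at -0.16, Rplp1 at -0.16, Rps18l1 at -0.10 and Rps20 at -0.16. With quantile normalization they were Rpl15 at 0.0198 and Rpl22 at -0.18. With TPM rescaled without ribosomal protein genes Rpl22 was -0.00872, and without mitochondrially encoded genes Rpl22 was -0.0200 and Rps20 was -0.00480. With 1 sample left out, the log2 fold changes ran from -0.0263 to 0.0103 (Rpl15), -0.0303 to 0.0266 (Rpl22), -0.51 to 0.15 (Rpl31l4), -0.0546 to 0.00505 (Rpl7l1), -0.0232 to 0.0705 (Rplp1) and -0.0163 to 0.0711 (Rps20), and the ratio of Rpl31l4 to Rpl31 from -0.34 to 0.29. The ratio of Rpl22l1 to Rpl22 had an exact permutation p of 0.057 without any 1 of the Lv-Piezo1 samples. The causes of these changes were not tested.

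Samples with the same replicate number did not deviate together (correlations of -0.03, -0.06, -0.05 and -0.01), so the numbers were not taken to pair them. With a replicate block 3 ribosomal protein rows were called, 8 were higher and 20 were lower, and the shares over all tested rows are not given here. Of the named rows, Rpl23a (limma adjusted p = 0.11) and the main Rps4x row (0.051) did not pass with the block, and Rps15al4 did (0.012). TPM carries no depth, so the precision of low rows is unknown.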
